A study of Mus musculus with 6 samples.

Results

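The genes described here are 10 genes for myoblast fusion and cell adhesion, chosen by symbol: Mymk, Mymx, Cdh15, Cdh2, Jam2, Jam3, Myof, Dysf, Kirrel and Adgrb3. All 10 were among the 43074 gene symbols of the count table, and all 10 were among the 17433 genes tested. RNA sequencing was done on C2C12 cells, a wild-type mouse myoblast line that exits the cell cycle and forms multinucleated myotubes when serum is reduced. The 3 groups were untreated cells in growth medium at day 0, cells kept to day 4 in differentiation medium with horse serum and DMSO, and cells kept to day 4 in the same medium with 1 mM 4-phenylbutyric acid (4-PBA), with 2 libraries in each. 4-PBA, a short aromatic fatty acid, is known both to help proteins fold and to inhibit histone deacetylases. A single cell line was used, and the labels do not say whether replicate libraries came from separate cultures, so p-values measure the spread between these libraries, which may be technical.

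Skeletal muscle fibres form when mononucleated myoblasts adhere, bring their membranes together and fuse. Adhesion is known to rest on cadherins and on immunoglobulin-superfamily receptors such as the junctional adhesion molecules and the nephrin-like protein encoded by Kirrel. Membrane merger is known to need a pair of muscle proteins: the multipass protein myomaker, encoded by Mymk, acts in the mixing of the outer lipid leaflets, and the micropeptide myomerger (also called myomixer or minion), encoded by Mymx, acts in opening the fusion pore.

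Libraries held 47908926 to 74697397 counts. The 7 myotube markers (Myog, Myh3, Myh8, Ckm, Acta1, Tnnt3 and Myl1) summed to 87.9 and 90.8 CPM (each library's counts scaled to the same total after TMM, a normalisation that trims extreme genes) at day 0 and to between 4900 and 5308 CPM at day 4. The 4 markers of cycling cells (Mki67, Top2a, Ccnb1 and Cdk1) summed to 1333 and 1358 CPM at day 0 and to between 359.6 and 460.5 CPM at day 4. Summed markers of adipocytes and of endothelium stayed at or under 0.391 and 0.883 CPM in every library. Single markers of osteoblasts and leukocytes reached at most 3.12 and 5.47 CPM. The 4 myoblast markers (Myod1, Myf5, Pax7 and Des) summed to 1023 and 1034 CPM at day 0 and to between 2181 and 2361 CPM at day 4, of which Des made up the most (877 and 885 CPM at day 0). Myod1 stood at 95.8 and 99.1 CPM and Myf5 at 50.4 and 49.98 CPM at day 0, while Pax7 was near 0 (0.309 and 0.299 CPM). With DMSO, Des, Myod1 and Pax7 rose and Myf5 fell (log2 fold change -1.14, SE 0.0572, adjusted p 5.96e-19 by edgeR). Myoblast markers other than Pax7 were thus present at day 0. In bulk samples such as these, fewer cells of a type and less RNA per cell cannot be told apart.

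Differentiation in DMSO was marked by a very large rise of both fusogen genes, a several-fold rise of Dysf, smaller rises of Cdh15, Cdh2, Jam3 and Kirrel, and a fall of Jam2. Day 0 and day 4 cells differed in time, medium and added compound together, so the parts of these cannot be told apart. Here, with DMSO names the day 4 group. Myof and Adgrb3 were not called. edgeR's quasi-likelihood test, adjusted by Benjamini-Hochberg over every tested gene, called 8 of the 10 genes at an adjusted p-value under 0.05, 7 higher and 1 lower. Of all tested genes, 66.3% were called in this comparison, 33.8% higher and 32.6% lower. Among genes with a mean of at least 10 CPM, a level that all members but Adgrb3 reached, 81.9% were called, so the number of calls is near the background. Called changes of at least 2-fold upward, which 13.2% of all tested genes had, were found in 3 of the 10: Mymx, Mymk and Dysf. The groups did not overlap for 9 of the 10 genes, as for 81.9% of all tested genes. The median log2 fold change was 0.63 over the 10 genes and 0.023 over all tested genes.

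**Figure D1:**
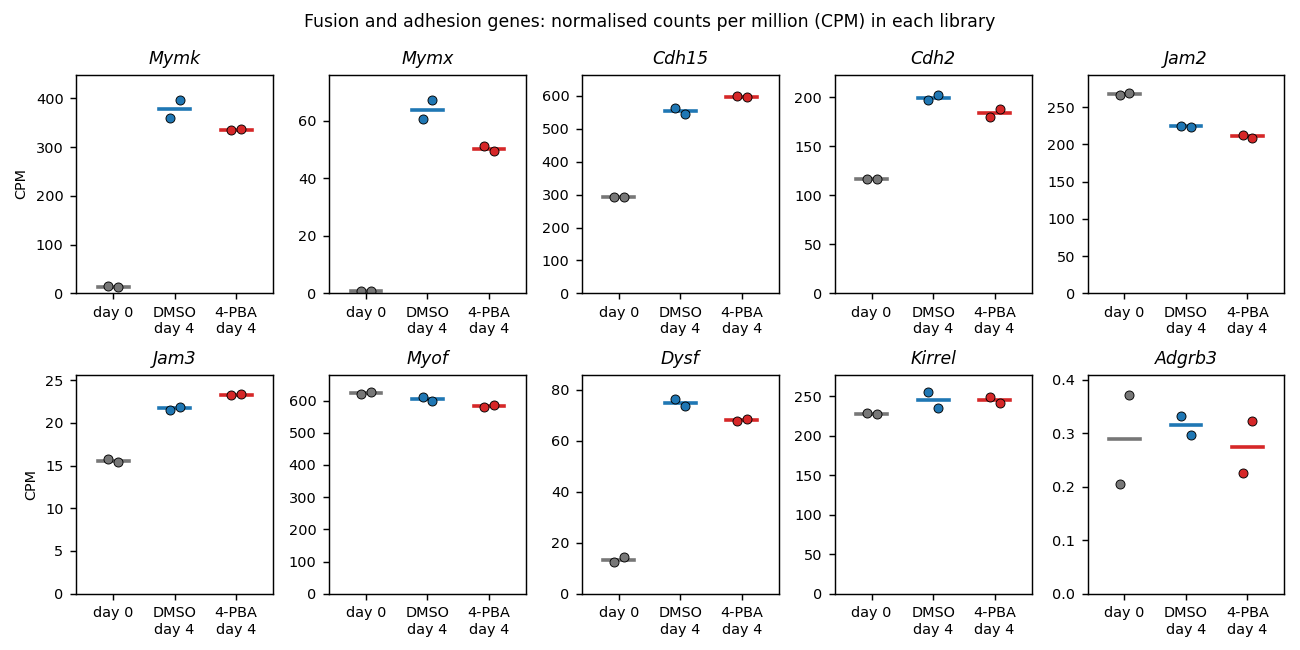
Normalised CPM (linear axis from 0, own scale for each gene) of the 10 genes; points are the 2 libraries of each group and horizontal lines their means. Mymk, Mymx and Dysf are near the bottom of their panels at day 0 and high at day 4, while Myof and Kirrel stand near the same level in all groups and no Adgrb3 library exceeds 0.370 CPM.

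Mymx had 40 and 50 counts at day 0, or 0.823 and 0.712 CPM. At day 4 it stood at 60.6 and 67.1 CPM with DMSO and at 51.1 and 49.4 CPM with 4-PBA. The 3 groups did not overlap, and day 4 libraries lay far above day 0. With DMSO the rise was 84.0-fold (log2 fold change 6.39, SE 0.0961, adjusted p 2.15e-34), which ranked 96 of 17433 genes.

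Mymk stood at 14.2 and 13.1 CPM at day 0, at 359 and 397 CPM with DMSO and, after 4-PBA, at 334.5 and 338 CPM. Mymk was thus already detected in the day 0 libraries, from 692 and 918 counts, where Mymx was close to absent. The same libraries also held myotube markers (summed 90.8 and 87.9 CPM). Which of the day 0 cells held the Mymk transcripts was not tested. The rise with DMSO was 27.8-fold (log2 fold change 4.80, SE 0.0509, adjusted p 1.65e-25), rank 261 of 17433. Shares and orders of the members' levels are given as CPM per kilobase of exon (RPKM), with exon lengths from GENCODE M21. On that scale Mymx made up 7.84% and 7.42% of the summed level of both fusogen genes at day 0, 19.9% in each DMSO library, and 18.4% and 17.7% in the 4-PBA libraries. Mymk therefore remained the more abundant transcript in every library, and the Mymx share was higher at day 4 than at day 0.

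Cdh15 encodes M-cadherin, the muscle cadherin, and Cdh2 encodes N-cadherin; both are calcium-dependent adhesion molecules known to join myoblasts before fusion. Cdh15 stood at 291.5 and 294 CPM at day 0, at 564 and 544 CPM with DMSO and, after 4-PBA, at 600.1 and 596 CPM. It was thus highly expressed before differentiation and rose 1.89-fold in DMSO (log2 fold change 0.92, SE 0.0293, adjusted p 8.23e-25). Cdh2 stood at 116 CPM in both day 0 libraries, at 197 and 202 CPM with DMSO and, after 4-PBA, at 180.1 and 188 CPM. It rose 1.72-fold in DMSO (log2 fold change 0.78, SE 0.0341, adjusted p 1.04e-20). The cadherins rose together, and their balance moved little: Cdh15 made up 86.1% and 86.3% of their summed RPKM in the day 0 libraries, 87.7% and 87.0% after DMSO, and 89.2% and 88.7% after 4-PBA.

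Jam2 and Jam3 encode junctional adhesion molecules B and C, immunoglobulin-superfamily partners that bind each other between cells and are known to be needed for myocyte fusion in zebrafish. These genes moved in opposite directions. Jam2 stood at 266.5 and 269 CPM at day 0, at 225.5 and 223.5 CPM with DMSO and, after 4-PBA, at 212.5 and 209 CPM. It fell with DMSO to 83.8% of its day 0 level (log2 fold change -0.25, SE 0.0307, adjusted p 4.66e-09). Jam3 stood at 15.7 and 15.4 CPM at day 0, at 21.5 and 21.9 CPM with DMSO and, after 4-PBA, at 23.2 and 23.3 CPM. It rose 1.395-fold in DMSO (log2 fold change 0.48, SE 0.0700, adjusted p 2.18e-07). Jam2 nevertheless kept the larger share of their summed RPKM, standing at 89.96% and 90.2% in the day 0 libraries, 84.7% and 84.4% with DMSO, and 82.9% and 82.6% after 4-PBA. Part of the Jam3 exons (36.2% of their bases) is shared with the antisense gene Gm48796, which had 12 to 63 counts per library against 765 to 1624 for Jam3. Since the counting is not stated to use strand, their reads may not be fully separated.

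Myof and Dysf encode myoferlin and dysferlin, large membrane proteins of the ferlin family; myoferlin is known for a role in myoblast fusion and dysferlin for repair of the muscle membrane. Dysf stood at 12.4 and 14.2 CPM at day 0, at 76.2 and 73.6 CPM with DMSO and, after 4-PBA, at 67.5 and 68.3 CPM. It rose 5.58-fold in DMSO (log2 fold change 2.48, SE 0.0565, adjusted p 4.42e-29). Myof was highly expressed throughout: its day 0 libraries held 620 and 627 CPM, its DMSO libraries 610.5 and 598 CPM and its 4-PBA libraries 579.5 and 587 CPM. Its log2 fold change with DMSO was -0.046 (SE 0.0281, 95% interval -0.10 to 0.011, adjusted p 0.153); with library size in place of TMM it was -0.074 and was called (adjusted p 0.0160), in a range of adjusted p over alternatives up to 0.482. Dysf accordingly went from 2.95% and 3.32% of the summed RPKM of both ferlins in the day 0 libraries to 15.9% and 15.7% in DMSO and 14.99% and 14.97% in 4-PBA, so Myof remained the more abundant ferlin transcript. Exons of Dysf overlap the antisense genes Gm15475 and Gm33024, which had no counts and at most 12 counts in any library.

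**Figure D2:**
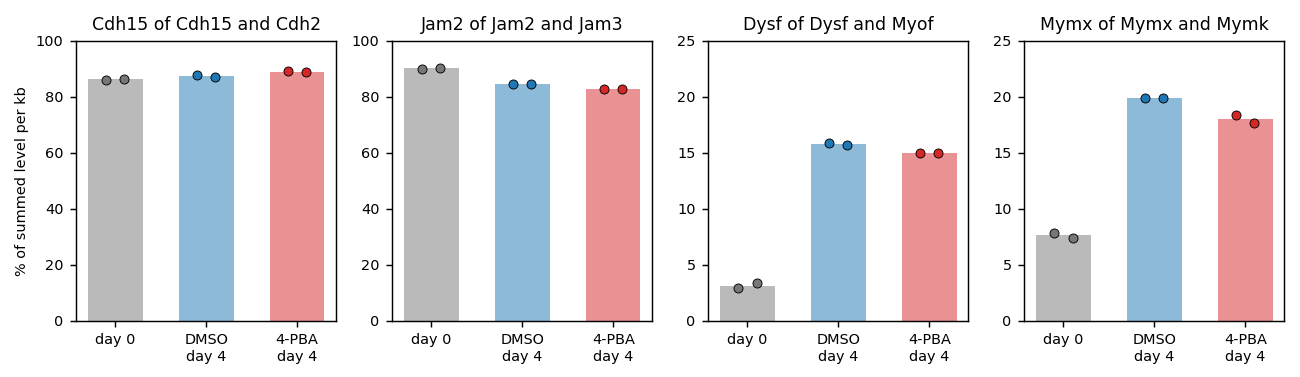
Share of the summed level per kilobase of exon (RPKM) held by the first gene of each pair, in percent; bars are means of 2 libraries, points are libraries, and the vertical axis ends at 100% in the left 2 panels and at 25% in the right 2. In every library the Dysf and Mymx shares are higher at day 4 than at day 0 and the Jam2 share is lower.

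Promoter sequences (250 bases before to 50 bases after a start site, RefSeq, build GRCm38.p6) were given for 5 of the 10 genes, Cdh15, Myof, Dysf, Kirrel and Adgrb3. Those of the ferlin genes, of which one rose and the other was not called, and of Cdh15, which rose, are shown 5′ to 3′ with every E-box (CANNTG, the core motif of the myogenic regulatory factors, the same on both strands) in capitals. Cdh15 lies at chr8:122848124-122848423 (plus strand), the Dysf start sites at chr6:84008348-84008647 and chr6:84019136-84019435 (plus strand), and Myof at chr19:38043528-38043827 (minus strand).
Cdh15: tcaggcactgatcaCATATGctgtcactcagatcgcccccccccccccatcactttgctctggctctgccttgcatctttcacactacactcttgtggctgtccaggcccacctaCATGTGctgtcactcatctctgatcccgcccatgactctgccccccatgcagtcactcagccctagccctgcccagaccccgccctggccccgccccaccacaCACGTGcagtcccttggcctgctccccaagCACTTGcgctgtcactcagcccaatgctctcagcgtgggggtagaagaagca
Dysf, start site 1: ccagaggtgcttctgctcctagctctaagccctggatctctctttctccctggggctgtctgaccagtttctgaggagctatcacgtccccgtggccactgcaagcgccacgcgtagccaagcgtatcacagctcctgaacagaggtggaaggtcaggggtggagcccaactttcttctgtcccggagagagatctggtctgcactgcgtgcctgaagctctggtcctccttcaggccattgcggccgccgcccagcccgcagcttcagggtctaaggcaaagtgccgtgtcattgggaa
Dysf, start site 2: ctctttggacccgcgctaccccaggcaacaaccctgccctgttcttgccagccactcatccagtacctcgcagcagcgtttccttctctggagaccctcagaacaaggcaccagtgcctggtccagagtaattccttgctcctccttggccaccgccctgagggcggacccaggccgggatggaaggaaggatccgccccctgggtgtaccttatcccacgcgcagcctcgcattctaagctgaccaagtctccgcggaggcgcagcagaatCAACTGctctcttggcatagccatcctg
Myof: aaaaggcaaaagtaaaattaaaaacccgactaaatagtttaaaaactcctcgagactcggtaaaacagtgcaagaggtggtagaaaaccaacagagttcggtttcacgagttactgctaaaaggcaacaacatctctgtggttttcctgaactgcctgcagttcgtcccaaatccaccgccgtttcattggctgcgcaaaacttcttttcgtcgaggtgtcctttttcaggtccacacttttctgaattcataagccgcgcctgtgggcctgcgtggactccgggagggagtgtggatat
The Cdh15 window held 4 E-boxes, the windows at Dysf start sites 1 and 2 held 0 and 1, and the Myof window held 0. Of the windows not shown, that of Kirrel, which rose, held 0 and that of Adgrb3, which was not called, held 2. Adgrb3 had only 10 to 26 counts a library, and no window was given for Mymk or Mymx. Whether E-boxes relate to the calls was not tested. Of all 32851 promoters of this length, 72.3% held at least 1 E-box. The form CAGCTG, present in 16.3% of all promoters, was in none of these windows, and neither was the MEF2 motif (either strand, matches in 3.19% of all promoters).

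Kirrel encodes a nephrin-like receptor whose fly relatives act in myoblast recognition. It stood at 228 CPM in both day 0 libraries, at 255 and 235 CPM with DMSO and, after 4-PBA, at 249 and 241 CPM. Day 4 libraries lay above day 0, but the difference with DMSO was 7.46% (log2 fold change 0.10, SE 0.0345, adjusted p 0.00876), and no larger than the distance between both DMSO libraries. The call was lost without day 0 replicate 1 (adjusted p 0.0593), without day 0 replicate 2 (0.0517) and without DMSO replicate 1 (0.252, log2 fold change 0.044), in a range down to 8.71e-06. Adgrb3 encodes an adhesion G protein-coupled receptor reported to promote myoblast fusion through ELMO and DOCK proteins. It had 10 and 26 counts in the day 0 libraries, 21 and 22 in those with DMSO and 14 and 20 in those with 4-PBA, at most 0.370 CPM in any library. Groups overlapped in all 3 comparisons, and the 95% interval of its log2 fold change with DMSO (0.088, adjusted p 0.893) ran from -0.99 to 1.16, so a change of less than about that size was not detectable at this depth.

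By RPKM the order at day 0 was Cdh15 (89.99 ± 0.455, SD, n = 2), Myof (49.5 ± 0.436), Jam2 (44.3 ± 0.307), Kirrel (30.5 ± 0.0490), Cdh2 (14.4 ± 0.0253), Mymk (9.04 ± 0.544), Jam3 (4.87 ± 0.0725), Dysf (1.60 ± 0.154), Mymx (0.748 ± 0.0763) and Adgrb3 (0.0155 ± 0.00627). With DMSO Mymk (250.2 ± 17.5) led, followed by Cdh15 (170.4 ± 4.23), Mymx (62.2 ± 4.45), Myof (47.9 ± 0.725), Jam2 (37.1 ± 0.244), Kirrel (32.8 ± 1.93), Cdh2 (24.7 ± 0.483), Dysf (8.996 ± 0.223), Jam3 (6.79 ± 0.0784) and Adgrb3 (0.0170 ± 0.00138). The libraries of neighbours in these orders did not overlap, and the order with 4-PBA was that with DMSO. With the longest transcript in place of all exon bases, Myof preceded Mymx, Cdh2 preceded Kirrel and Jam3 preceded Dysf at day 4, with Jam3 (11.2 ± 0.129) and Dysf (11.01 ± 0.273) overlapping with DMSO, so these places depend on the length used.

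Against DMSO at day 4, 4-PBA was accompanied by lower Mymx, Mymk and Cdh2 and by higher Cdh15, with levels between 78.6% and 108% of those with DMSO. edgeR called 4 of the 10 genes, 1 higher and 3 lower. Of all tested genes 4.9% were called, 2.13% higher and 2.78% lower, and of those with a mean of at least 10 CPM 7.91% were called. By edgeR, DESeq2 and limma-voom 0 members were called with a 2-fold change, as edgeR called 0.0688% of all tested genes. By edgeR 6 of the 10 had an unadjusted p under 0.05, against 2908 of the 17433 tested genes. The median log2 fold change was -0.10 over the 10 genes and 0.0021 over all tested genes.

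Mymx was lower in both 4-PBA libraries (51.1 and 49.4 CPM) than in both DMSO libraries (60.6 and 67.1 CPM). Its level was 78.6% of that in DMSO (log2 fold change -0.35, SE 0.0532, adjusted p 5.66e-05). In this comparison it was the only one of the 10 genes whose call held in all 14 alternatives, with log2 fold changes between -0.42 without DMSO replicate 1 and -0.27 without DMSO replicate 2. Mymk was at 89.0% of its DMSO level (-0.17, SE 0.0393, adjusted p 0.0134). Leaving out DMSO replicate 1 gave -0.24 and leaving out DMSO replicate 2 gave -0.094, where the call was lost (adjusted p 0.0909), as it was without 4-PBA replicate 1 (0.142) or 2 (0.0940).

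Of the cadherins, Cdh15 was higher with 4-PBA, at 108% of DMSO (0.11, SE 0.0289, adjusted p 0.0171), and Cdh2 was lower, at 92.3% (-0.12, SE 0.0335, adjusted p 0.0358). Both 4-PBA libraries lay above both DMSO libraries for Cdh15 and below them for Cdh2. The call of Cdh15 was lost without DMSO replicate 2 (adjusted p 0.0675) and without 4-PBA replicate 1 (0.236) or 2 (0.172). That of Cdh2 was lost in 8 of 14 alternatives, among them the DESeq2 Wald test (adjusted p 0.0618), the fit of only the 4 libraries compared (0.0590), scaling by library size (0.0553) and the fits without day 0 replicate 1 (0.0727) or 2 (0.0677), without DMSO replicate 2 (0.121) and without 4-PBA replicate 1 (0.466) or 2 (0.0897). Without DMSO replicate 2, 4-PBA replicate 1 or 4-PBA replicate 2, 1 member was called in place of 4, and this was Mymx.

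**Figure D3:**
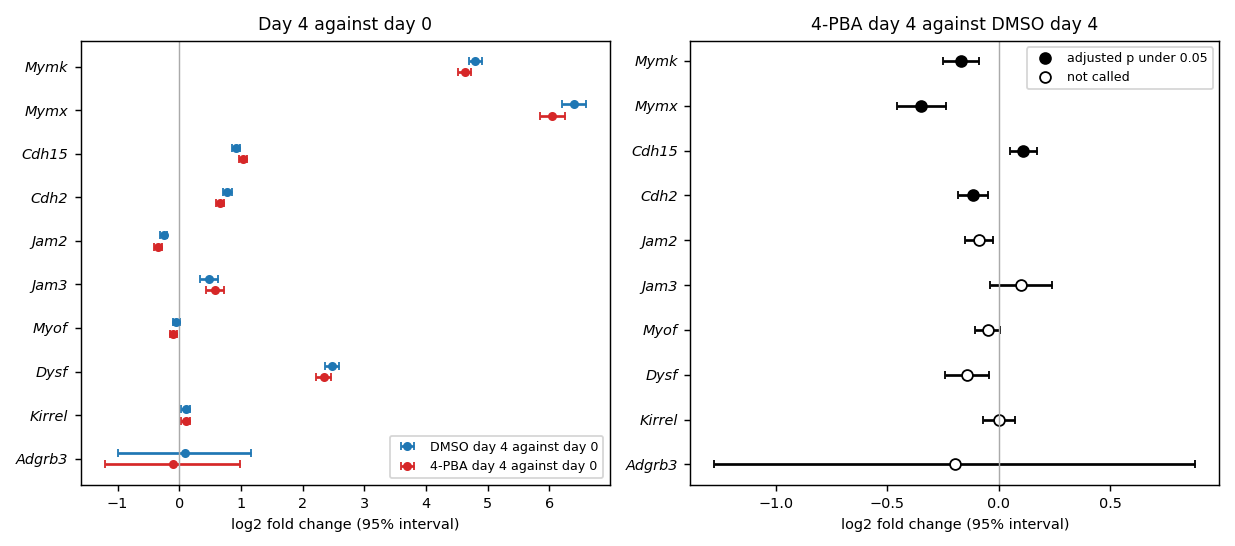
Log2 fold changes of the 10 genes with 95% intervals from edgeR; left, day 4 with DMSO (blue) or 4-PBA (red) against day 0, which share the day 0 libraries; right, 4-PBA against DMSO, filled where called. The 2 axes differ in scale: the largest change is 6.39 (Mymx) on the left and -0.35 (Mymx) on the right, and the Adgrb3 interval is the widest in both panels.

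The other 6 genes were not called between 4-PBA and DMSO. The log2 fold change was -0.091 for Jam2 (95% interval -0.15 to -0.028, adjusted p 0.0848), 0.10 for Jam3 (-0.037 to 0.24, adjusted p 0.508), -0.050 for Myof (-0.11 to 0.0071, adjusted p 0.389), -0.14 for Dysf (-0.24 to -0.043, adjusted p 0.0884), 0.0015 for Kirrel (-0.069 to 0.072, adjusted p 0.989) and -0.20 for Adgrb3 (-1.27 to 0.88, adjusted p 0.914). These intervals are for single genes and are not adjusted for the number of genes. Both libraries of one group lay apart from both of the other for 8 of the 10 genes, all but Kirrel and Adgrb3. The share over all tested genes was 45.5%. For such a separation of 2 libraries from 2, an exact permutation test cannot go below p = 0.333. limma-voom called Dysf (adjusted p 0.0418, in a range up to 0.401).

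**Figure D4:**
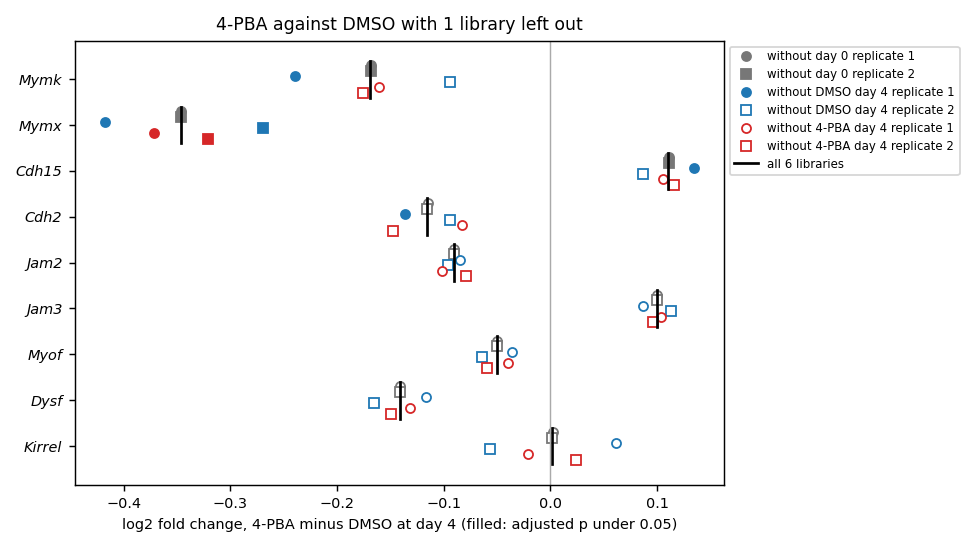
Log2 fold change between 4-PBA and DMSO at day 4 for 9 of the genes (Adgrb3 left out for its width) with all 6 libraries (black line) and with each library left out (points, filled where the adjusted p was under 0.05). Mymx points are all filled and left of 0, those of Mymk spread from -0.24 to -0.094 with either DMSO library left out, and those of Kirrel lie on both sides of 0.

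The DMSO libraries themselves differed in their markers. Cycling markers summed to 426 CPM in DMSO replicate 1, 359.6 in DMSO replicate 2, and 450 and 460.5 with 4-PBA. Myotube markers summed to 4964 and 5308 CPM with DMSO and to 4900 and 5027 CPM with 4-PBA. Between 4-PBA and DMSO, 1 of the 7 myotube markers was called (Acta1, lower), 1 of the 4 myoblast markers (Des, lower) and 0 of the 4 cycling markers by edgeR, of which 3 had an unadjusted p under 0.05. Mymk and Mymx were likewise higher in DMSO replicate 2 than in replicate 1. The part of these differences in the values of the fusion genes was not tested.

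Differentiation with 4-PBA, compared with day 0, gave 9 calls among the 10 genes, 7 higher and 2 lower, where 65.6% of all tested genes were called (33.2% higher, 32.4% lower), and 81.7% of those with a mean of at least 10 CPM. Groups did not overlap for 9 of the 10, as for 81.8% of all tested genes. At least 2-fold higher were 4 of them, against 12.8% of all tested genes: Mymx (66.1-fold, log2 fold change 6.05, SE 0.0982), Mymk (24.7-fold, 4.63, SE 0.0508), Dysf (5.06-fold, 2.34, SE 0.0569) and Cdh15 (2.04-fold, 1.03, SE 0.0294). Cdh2 (0.66, SE 0.0342), Jam3 (0.58, SE 0.0701) and Kirrel (0.11, SE 0.0345) were also higher, and Jam2 (-0.35, SE 0.0308) and Myof (-0.096, SE 0.0282) lower. The Myof call (adjusted p 0.00322) was lost without day 0 replicate 2 (0.0650) and without 4-PBA replicate 1 (0.0886); the Kirrel call (0.00811) was lost without day 0 replicate 1 (0.0553) and without 4-PBA replicate 1 (0.104). This comparison shares its day 0 libraries with that of DMSO and its 4-PBA libraries with that against DMSO.

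Other genes of adhesion and fusion were counted from 7 lists of 67 genes in the table, of which 61 were tested. With DMSO against day 0, 52 of the 61 (85.2%) were called, 34 higher and 18 lower, and 13 were at least 2-fold higher. Over all tested genes 66.3% were called, over those with a mean of at least 10 CPM 81.9%, so the share in these lists is near that of expressed genes, and the counts per list below are to be read against it. At least 2-fold higher were 13.2% of all tested genes. Among cadherins and catenins 5 of 6 rose and 1 fell, led by Cdh11 (log2 fold change 2.11, SE 0.0425), Jup (plakoglobin, 1.73, SE 0.0314) and Cdh13 (1.45, SE 0.0339). Of 7 immunoglobulin-superfamily genes and co-receptors, 4 rose and 2 fell; Ncam1, a neural cell adhesion molecule used by muscle, rose from 127 and 129 to 783 and 815 CPM (2.64, SE 0.0313), Cdon, a cadherin-associated co-receptor, by 1.59 (SE 0.0307) and F11r by 1.34 (SE 0.0497). Nphs1 (nephrin), Kirrel2 and Adgrb1 were too low to be tested.

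Integrins, tetraspanins and Adam12 gave 4 rises and 2 falls among 7 genes, with Itga4 (2.34, SE 0.0782) and Cd81 (0.77, SE 0.0299) higher and Itga3 (-1.11, SE 0.0358) lower. All 12 tested genes for ferlin relatives and membrane repair were called, 9 higher and 3 lower. Among them Trim72, which encodes a membrane repair protein, rose from 2.28 and 1.70 to 135.5 and 139 CPM (6.14, SE 0.0680), and Cav3, muscle caveolin, rose by 5.67 (SE 0.184). Fer1l6 fell by 2.602 (SE 0.334) on the log2 scale, from a low mean of 2.36 CPM at day 0 to 0.392 CPM with DMSO. Fer1l5, counted among the rises, had only 2 and 0 counts at day 0 and 16 and 11 with DMSO. Of 19 genes for actin remodelling, 10 rose and 7 fell, none by 2-fold; Rnd3 (0.87, SE 0.0504) was higher and Arf6 (-0.71, SE 0.0364) and Dock5 (-0.69, SE 0.0407) were lower. In 4 genes for phosphatidylserine recognition and exposure the call was that of Anxa1 (-0.21, SE 0.0281). Fst, which encodes the myostatin antagonist follistatin, led the secreted cues and receptors (2.91, SE 0.0668), of which 2 of 6 rose and 2 fell; the calls of Cxcl12 (-0.28, SE 0.0778) and Cxcr4 (0.21, SE 0.0797) were lost without DMSO replicate 2 (adjusted p 0.0830 and 0.220), and that of Cxcr4 also without day 0 replicate 1 (0.172) and by DESeq2 (0.0724). With 4-PBA against day 0, 46 of the 61 (75.4%) were called, 31 higher and 15 lower, between the 65.6% of all tested genes and the 81.7% of those with a mean of at least 10 CPM. Exons of Ncam1, Itga4, Cd81, Trim72, Arf6, Fst, Il4ra and Fer1l5 overlap genes of the other strand in GENCODE M21. Their reads may thus not be fully separated either. The gene overlapping Fer1l5, Lman2l, had 1909 to 4306 counts a library. The gene overlapping Il4ra had 0 counts, and those overlapping Trim72 and Fst had at most 4 and 3.

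**Figure D5:**
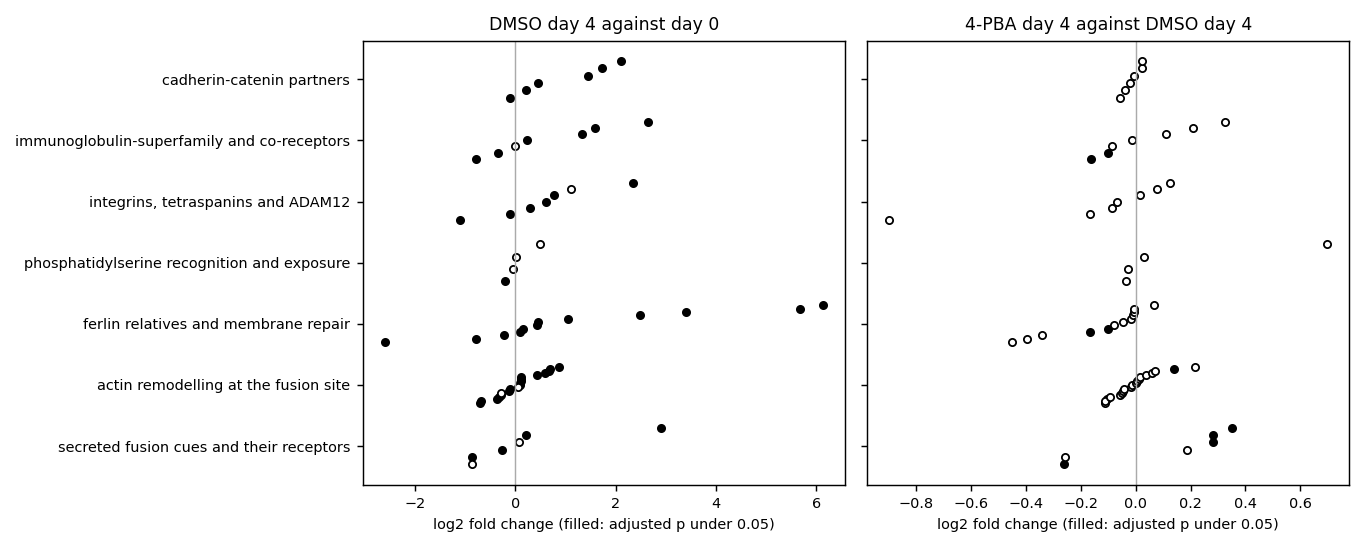
Log2 fold changes of the tested genes in 7 lists of other fusion and adhesion genes, each point a gene (filled where called), for DMSO against day 0 (left) and 4-PBA against DMSO (right, a narrower axis). On the left the points spread from -2.602 (Fer1l6) to 6.14 (Trim72), and on the right the called genes lie between -0.26 (Il4ra) and 0.35 (Cxcr4).

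Between 4-PBA and DMSO, 10 of the 61 (16.4%) were called, 4 higher and 6 lower, where 4.9% of all tested genes and 7.91% of those with a mean of at least 10 CPM were called. An unadjusted p under 0.05 was found for 22 of the 61 and for 2908 of the 17433 tested genes. The median log2 fold change was -0.017, against 0.0021 over all tested genes. Secreted cues and receptors held 4 of the calls. Cxcr4, a chemokine receptor, went from 15.6 and 17.1 CPM with DMSO to 19.8 and 22.0 CPM with 4-PBA (0.35, SE 0.0769, adjusted p 0.00388), its ligand Cxcl12 from 16.5 and 14.3 to 18.7 CPM in both libraries (0.28, SE 0.0773, adjusted p 0.0243), and Fst from 58.1 and 55.7 to 67.9 and 70.4 CPM (0.28, SE 0.0529, adjusted p 8.5e-04). These 3 genes were higher in both libraries. Il4ra, the interleukin 4 receptor, was lower (-0.26, SE 0.0486, adjusted p 6.63e-04) and was chosen after its value was seen. Without 4-PBA replicate 2 the calls of Cxcr4 (adjusted p 0.167), Fst (0.0530) and Il4ra (0.0523) were lost, and that of Cxcl12 was lost without either 4-PBA library (0.148 and 0.160), without DMSO replicate 2 (0.18, adjusted p 0.279) and by DESeq2 (0.0520).

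Ncam1 was lower with 4-PBA, at 710 and 719 CPM against 783 and 815 (-0.16, SE 0.0290, adjusted p 4.20e-04), and its call held in all 14 alternatives. The other calls were of Cdon (-0.10, adjusted p 0.0394), Trim72 (-0.17, adjusted p 0.0128), Ahnak (-0.10, adjusted p 0.0142), Trio (-0.10, adjusted p 0.0335) and Elmo2 (0.14, adjusted p 0.0468). Those of Cdon, Trio and Elmo2 were lost in 8, 8 and 9 of the 14 alternatives, and those of Trim72 and Ahnak without either 4-PBA library. The 10 calls fell to 5 without 4-PBA replicate 1 and to 1 without 4-PBA replicate 2. Among the 6 cadherins and catenins 0 were called by edgeR, DESeq2 or limma-voom, with 0 at an unadjusted p under 0.05 by edgeR. Among the 7 integrins, tetraspanins and Adam12, 0 were called by edgeR or DESeq2 and 1 by limma-voom. An unadjusted p under 0.05 by edgeR was found for 5 of these 7, against 2908 of all 17433 tested genes.

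The genes most like each fusogen gene were taken as the 3 with the smallest root-mean-square difference of log2 CPM over the 6 libraries, after centring each gene on its mean, among genes with a mean of at least 5 CPM. For Mymk these were Myom1, which encodes the M-band protein myomesin (difference 0.034), Gprc5c (0.050) and Itgb1bp2, which encodes the integrin-binding protein melusin (0.077). For Mymx they were Casq2, a calsequestrin of the sarcoplasmic reticulum (0.084), 5430431A17Rik (0.093) and Mybph, a myosin-binding protein (0.094). With either day 0 library or DMSO replicate 2 left out, 2 of the 3 for Mymk were again found. Of those for Mymx 1 was found without day 0 replicate 1 and 0 without day 0 replicate 2, so this list for Mymx depends on the day 0 libraries, in which Mymx had 40 and 50 counts. The nearest gene was Prickle1 for Cdh15 (0.023), Cd81 for Cdh2 (0.027), Itpripl2 for Jam2 (0.014), Ikbip for Jam3 (0.014), Trrap for Myof (0.0088), Plekha7 for Dysf (0.060), Ate1 for Kirrel (0.012) and Gm14391 for Adgrb3 (0.14). These choices are unstable: with 1 library left out, 0 of the 3 most alike genes were again found for Cdh15 (without DMSO replicate 1), Cdh2 (either day 0 library or 4-PBA replicate 2), Jam2 (DMSO replicate 2 or either 4-PBA library), Myof and Kirrel (DMSO replicate 2), Dysf (day 0 replicate 1) and Adgrb3 (either day 0 library), and for Jam3 the lowest number was 1.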

How the data were processed

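Directional libraries were prepared from DNase-treated RNA of 6 samples, per the labels' protocols. The values deposited by the authors are raw counts for each gene symbol and library. The submitters' processing notes name the build GRCm39; the aligner, counter, annotation and strand setting are not given in the sources used here. The libraries of a group differed beyond sampling noise (chi-square per degree of freedom 3.98 to 7.15).

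The model was fitted in edgeR 4.0.16 (R 4.3.3): filterByExpr, TMM, 1 mean per group over all 6 libraries, robust glmQLFit (3 residual degrees of freedom) and the quasi-likelihood F test (two-sided). P-values were adjusted by Benjamini-Hochberg over 17433 genes, and genes with an adjusted p under 0.05 were called. The SE is the absolute log2 fold change over the root of F. With 2 libraries against 2, an exact permutation test cannot go below p = 0.333, so calls rest on a spread shared across genes. The members, lists and tests were chosen with earlier results of these data known. The rule for named genes was all members, per list the 3 called genes with the largest change and at least 1 CPM, and the 3 genes most like a member. Alternatives were DESeq2 1.42.0 (size factors or Wald test), library size, other filters, limma-voom (limma 3.58.1), a fit of the 4 libraries compared, a replicate block and leaving out each library. On simulated counts for DMSO against day 0 (16978 genes), edgeR called 41, 43, 49 and 50 of 50 genes changed 1.25-, 1.5-, 2- and 4-fold. It made 19 false calls among 16778 unchanged genes. The simulation took its spread from edgeR's own estimates, changed few genes and did not cover 4-PBA against DMSO. It therefore does not give the error rate in these data, where 66.3% of all tested genes were called with DMSO. GENCODE M21 (GRCm38) gave lengths and overlaps. Figures were drawn with matplotlib 3.10.9. Arhgap26, a listed gene, was not analysed here.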

Additional observations from a re-analysis of the deposited data

How the results depend on the processing

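Over the 14 alternatives, 390 of 420 values of the members kept their direction and their side of the threshold, 21 lost a call, 2 gained one and 7 changed sign; of 672 values for the other named genes 632 kept both and 40 lost a call. Kirrel between 4-PBA and DMSO (0.0015) changed sign without the filter (-0.0005039), without DMSO replicate 2 (-0.057) and without 4-PBA replicate 1 (-0.021). Adgrb3 with DMSO against day 0 (0.088) did so without day 0 replicate 1 (-0.24). With 4-PBA against day 0 (-0.11) it did so without day 0 replicate 2 (0.41) and without 4-PBA replicate 1 (0.13). Between 4-PBA and DMSO (-0.20) it did so without 4-PBA replicate 1 (0.037). Other values kept their sign but moved. Kirrel was 0.062 without DMSO replicate 1. Adgrb3 was 0.61 with DMSO against day 0 without day 0 replicate 2. With 4-PBA against day 0 it was -0.44 without day 0 replicate 1. Between 4-PBA and DMSO it was -0.47 without 4-PBA replicate 2. The cause of the sign changes was not tested.

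Leaving out 1 library moved the calls between 4-PBA and DMSO to between 1 and 4 members, 1 and 10 other fusion genes and 295 and 1194 of all genes; a library left alone in its group is assumed to vary like the others. Requiring a 2-fold change, chosen after seeing the data, left 3 members, 15 other fusion genes and 3825 of all genes with DMSO against day 0, 0, 0 and 12 between 4-PBA and DMSO, and 4, 14 and 3699 with 4-PBA against day 0. By edgeR without that requirement, 6 members and 22 other fusion genes had an unadjusted p under 0.05 between 4-PBA and DMSO. So did 2908 of the 17433 tested genes. No member reached a 2-fold change there under DESeq2 or limma-voom.

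With the longest transcript as length, the shares at day 0, with DMSO and with 4-PBA were 78.9%, 80.5% and 82.9% for Cdh15, 88.4%, 82.1% and 80.1% for Jam2, 2.18%, 11.5% and 10.8% for Dysf and 8.80%, 22.5% and 20.4% for Mymx, so the level of a share depends on the length and its order over groups does not.

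With the replicate number as a block, 8, 4 and 9 members were called in the 3 comparisons, as without it. The labels do not say whether same-numbered libraries are paired. The correlation across genes of the differences between replicates 1 and 2 was -0.0098 to -0.067 between groups. With 2 libraries a group, these values cannot settle whether such libraries are paired. The block moved the calls over all genes between 4-PBA and DMSO from 855 to 768 and among other fusion genes from 10 to 7. Adgrb3 had 10 to 26 counts a library, so its values are limited by depth as well as by the spread between 2 libraries a group. The calls of Elmo2, Trio and Cdon between 4-PBA and DMSO were lost under the block (adjusted p 0.0654, 0.0514 and 0.0660); no call of a member changed.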
